A study of Mus musculus with 90 samples.

Results

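The comparison set unexposed lungs of mice that carry human cytochrome P450 transgenes on a Cyp2f2 knockout background (TG) against unexposed lungs of the knockout without them (KO). It rests on 20 of the 90 arrays of the series, 10 TG and 10 KO, chosen by their strain and dose labels with no measured value. TG mice have the genotype CYP2F2(-/-),2F1,SA13,2B6, that is the mouse gene deleted and the human genes CYP2F1, CYP2A13 (written SA13 in the labels) and CYP2B6 added. KO mice have the genotype CYP2F2(-/-), so both groups lack a working Cyp2f2. Both are adult male C57BL/6 mice that breathed air (0 ppm styrene) for 1 or 4 weeks, with 5 animals per strain and time and 1 whole-lung array per animal. The schedule was 6 hours per day on 5 days per week, for these animals and for the exposed ones named below. The labels used here do not give ages in weeks, the promoters that drive the transgenes, their place in the genome or the number of founder lines. Other animals served for reference, namely 20 TG and 20 KO mice exposed to styrene at 40 or 120 ppm and 10 unexposed wild-type (WT) mice. The array carries mouse sequences, and the human transcripts were not analysed here.

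Cytochromes P450 are haem enzymes that oxidise drugs, steroids and inhaled chemicals. Cyp2f2 is the abundant member of airway club cells in the mouse and oxidises styrene, and CYP2F1, CYP2A13 and CYP2B6 are human members of the same larger family that are found in human airways or liver. Putting human enzymes into a mouse that lacks its own is a usual way to ask what the human enzymes do. An effect of the transgenes and any other difference between the lines' chromosomes cannot be told apart in this design.

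Values are log2 signal per probe set, and each gene is given by its brightest probe set. Array medians were 4.55 to 4.82 in TG and 4.72 to 4.85 in KO arrays, and a gene whose group mean lies under 4.55 counts as dim. No 2 arrays were identical (highest correlation 0.9972). One TG array (1 week, animal 5) and one KO array (1 week, animal 3) had low limma array weights of 0.155 and 0.211. TG animal 3 at 4 weeks was weighted 0.309 and had the smallest array median, and without it Slc36a2, Ttc1, Zfp354a, Tceanc2, Prmt3 and Clmp, described further on, did not pass. The difference between the 3' and 5' beta-actin control probe sets, a measure of how far RNA or its labelling is shortened, was 0.367 to 0.505 in TG and 0.282 to 0.440 in KO arrays. Fitted with that measure as a covariate, 31 genes passed (20 higher and 11 lower in TG) and 17 of the 23 genes described next were among them. Prmt3, G3bp1, Cep85, Tnip1, Clmp and Tceanc2 were not.

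The targeted gene was checked first. Cyp2f2 lay at 11.63, 11.94 and 12.05 (lowest, median and highest) in TG and at 11.53, 11.91 and 12.07 in KO lungs, against 13.21 to 13.39 in WT lungs. The TG and KO ranges lay on top of each other and both lay below every WT animal. The TG minus KO difference was 0.02 (two-sided permutation test over 100000 resamples, p = 0.82). The labels do not say whether its single probe set lies inside the deletion, so the remaining signal is no measure of functional mRNA. Scgb1a1, the secretoglobin that defines club cells, averaged 13.78 ± 0.08 in TG and 13.77 ± 0.07 in KO lungs (SD, n = 10 each), close to the highest value of all arrays, 14.01. Of the 15 measured genes in and around the Cyp2 cluster of chromosome 7, 0 passed and 0 had an unadjusted p below 0.05 in limma, with a median difference of -0.02. The largest difference in that list was Cyp2a5, a coumarin-hydroxylating P450 of the airway, at -0.19 (SE 0.46), with TG animals between 5.73 and 9.03 and KO animals between 6.23 and 8.69.

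Few genes passed between the strains at 0 ppm. Over 17097 genes, 23 passed an adjusted p of 0.05 in limma (0.135%), 9 higher and 14 lower in TG than in KO lungs, while 907 had an unadjusted p below 0.05 (5.31%) and the median of all genes was -0.02. Fitted on these 20 arrays alone with the week as a covariate, 7 genes passed (0.0409%), and all 7 were among the 23. With array weights 54 passed (20 higher, 34 lower, 22 of the 23 among them) and with the poly-A labelling controls as a covariate 42 passed (20 higher, 22 lower, all 23 among them). The 7 were Pttg1, A430108G06Rik, Entpd4, Slc25a37, Slc36a2, Tceanc2 and Cxcl1. The 23 folds ran from 1.16 to 7.04, 13 were over 1.5-fold and 4 over 2-fold. In simulated data with 200 genes changed 1.2-, 1.5-, 2- or 3-fold, 96% of those changed 1.5-fold and 46% of those changed 1.2-fold were recovered. The simulation held more changed genes than the 23 called here, and noise that was independent between arrays. These shares may therefore be too high for the real comparison. The TG and KO ranges did not overlap for 4 genes, Pttg1, Slc25a37, Slc36a2 and G3bp1, and these were the only such genes among all 17097 (0.0234%). The plot of values by animal shows the 9 genes that were higher and the 9 largest of those that were lower.

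**Figure D1:**
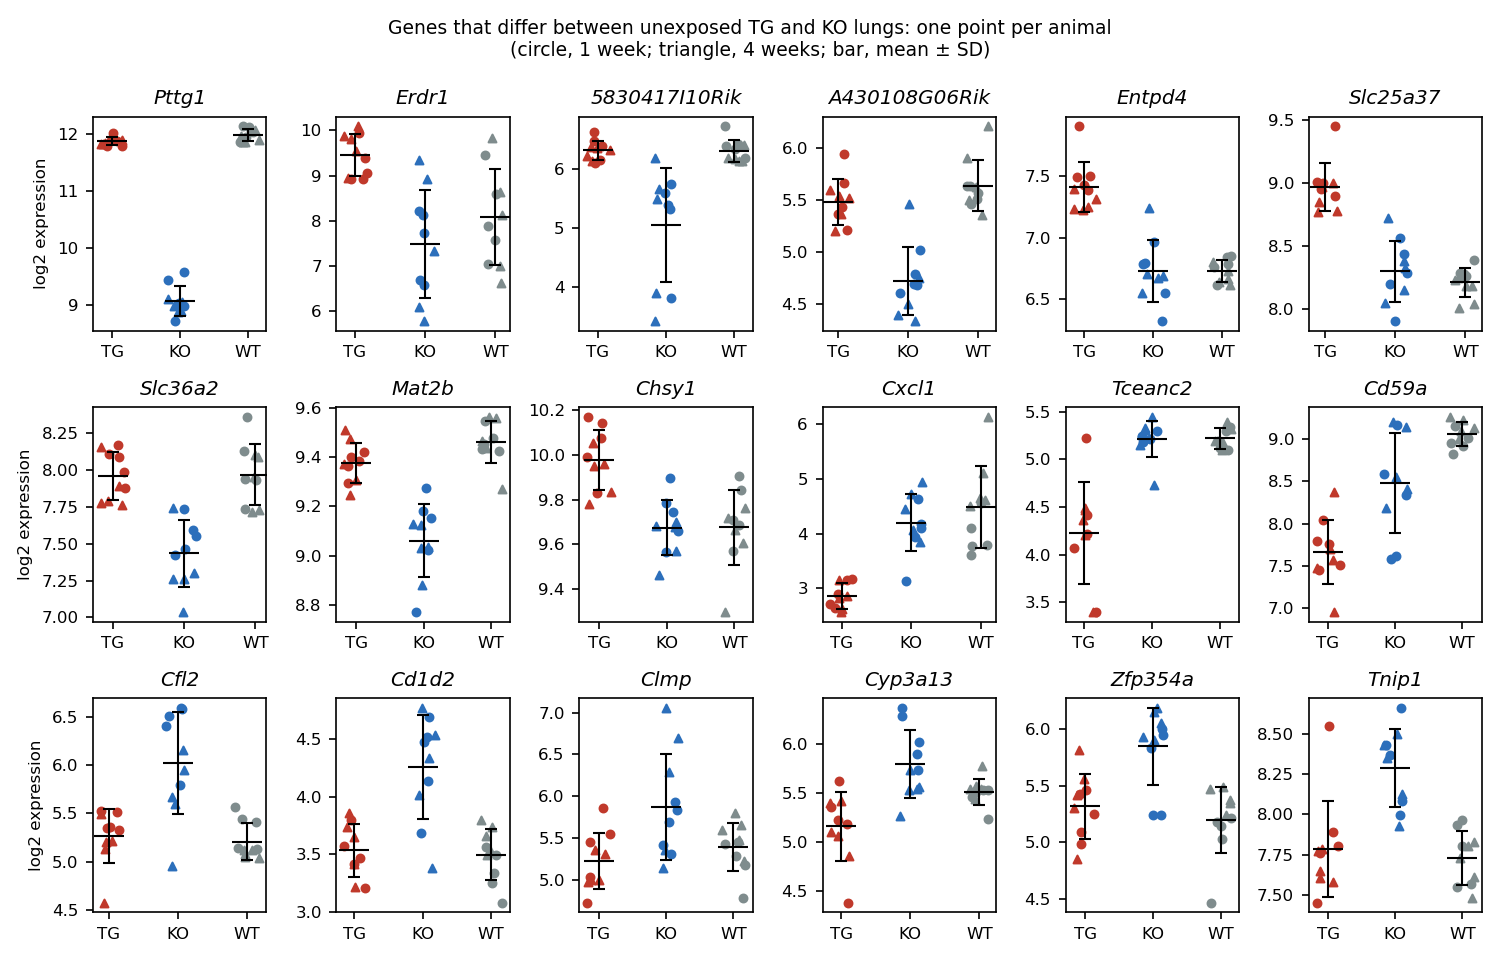
Log2 expression per animal (vertical axis) in unexposed TG, KO and WT lungs (horizontal axis, 10 animals each, circles 1 week and triangles 4 weeks, black bars mean ± SD), first for the 9 genes higher in TG than in KO and then for the 9 largest differences among the genes lower in TG. Pttg1 in TG (11.78 to 12.02) and WT lungs stands far above KO lungs (8.71 to 9.57), whereas Entpd4 and Slc25a37 in TG stand above both KO and WT.

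The gene with the largest difference was Pttg1, which encodes securin, the protein that holds back separase until chromosomes part in mitosis. It lay at 11.78, 11.86 and 12.02 in TG and at 8.71, 9.002 and 9.57 in KO lungs. All 10 TG animals were above all 10 KO animals, by 7.04-fold on average (log2 difference 2.82, SE 0.22, limma adjusted p = 1.2e-16). Its other 2 probe sets gave 2.10 (SE 0.16) and 1.53 (SE 0.14). Pttg1 lies on chromosome 11, and Ttc1, a tetratricopeptide-repeat adaptor gene that is the fifth tested gene after it, was lower in TG. Ttc1 lay at 7.94, 8.11 and 8.36 in TG and at 8.12, 8.35 and 8.54 in KO lungs (-0.21, SE 0.04, limma adjusted p = 0.0079), with overlapping ranges. Of 48 measured cell cycle genes, Pttg1 was the only one that passed, and the median of that list was -0.0006. Espl1, which encodes separase, averaged 3.59 ± 0.27 in TG and 3.65 ± 0.20 in KO lungs, both dim (-0.06, SE 0.13), and Pttg1ip, which encodes a securin-binding protein, averaged 11.12 ± 0.14 in TG and 11.18 ± 0.08 in KO lungs.

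Of the 23 genes, 8 lie on chromosome 11 (34.8%), which holds 7.97% of the tested genes. The outermost of the 8, Mat2b and G3bp1, were taken as the ends of a run of 129 tested genes, so all 8 fall in it by definition. Of the 8, 4 were higher and 4 lower in TG. Mat2b encodes the regulatory subunit of the enzyme that makes S-adenosylmethionine. It lay at 9.25, 9.38 and 9.51 in TG and at 8.77, 9.08 and 9.27 in KO lungs (0.32, SE 0.05, limma adjusted p = 0.0001), so that 9 of 10 TG animals were above every KO animal. Slc36a2, a proton-coupled amino acid transporter known from brown fat, lay at 7.76, 7.93 and 8.17 in TG and at 7.04, 7.44 and 7.74 in KO lungs (0.52, SE 0.12, adjusted p = 0.019). Its groups did not overlap, yet its limma adjusted p was 0.064 without KO animal 5 at 4 weeks and 0.076 without TG animal 3 at 4 weeks. A430108G06Rik, a transcript without an established function, lay at 5.20, 5.47 and 5.94 in TG and at 4.33, 4.68 and 5.46 in KO lungs (0.76, SE 0.14, adjusted p = 0.0015).

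The other 4 genes of the run were lower in TG, Ttc1 among them. Tnip1 encodes a protein that binds A20 and restrains NF-kB signalling. It lay at 7.45, 7.76 and 8.55 in TG and at 7.93, 8.36 and 8.66 in KO lungs (-0.50, SE 0.10, limma adjusted p = 0.0017), with 9 of 10 TG animals below every KO animal and 1 TG animal among the highest KO values. G3bp1, an RNA-binding protein that nucleates stress granules, lay at 9.04, 9.21 and 9.26 in TG and at 9.31, 9.41 and 9.58 in KO lungs (-0.24, SE 0.05, adjusted p = 0.0017). The groups did not overlap, but a second G3bp1 probe set gave 0.18 (SE 0.09). Zfp354a, a KRAB zinc-finger gene, averaged 5.32 ± 0.29 in TG and 5.85 ± 0.34 in KO lungs (-0.53, SE 0.12, adjusted p = 0.030). Its call was lost in 10 of the 20 fits that left out 1 of the compared animals (limma adjusted p up to 0.16, without TG animal 3 at 4 weeks), and that of Ttc1 in 1 of them (0.070, without the same animal).

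Of the 10 nearest tested genes around Slc36a2, 6 had an unadjusted p below 0.05 in limma (5.31% of all genes did) and 1, Tnip1, passed. That is the highest such count of the 23 loci, and around the other 7 called genes of chromosome 11 it was 0 for Mat2b and Zfp354a, 1 for Pttg1, Ttc1 and A430108G06Rik, 3 for Tnip1 and 4 for G3bp1, partly over the same neighbours. Gm2a, which encodes the activator of ganglioside breakdown in lysosomes, averaged 10.02 ± 0.19 in TG and 9.68 ± 0.19 in KO lungs (0.33, SE 0.08, limma adjusted p = 0.10). Slc36a1, the paralogous amino acid transporter of lysosomes, gave 0.36 (SE 0.10, adjusted p = 0.20) and Atox1, a copper chaperone, 0.28 (SE 0.09, adjusted p = 0.36). Of the 121 genes of the run that did not pass at 0 ppm, 10 passed between exposed TG and exposed KO animals (8.26%), against 0.988% of all genes and 0.811% of the genes of chromosome 11 outside the run. They were Nudcd2, Kif3a, Slc22a21 and Gm2a, which were higher in TG, and Trim41, N4bp3, Leap2, Uqcrq, Septin8 and Hint1, which were lower. Of these, Hint1, a nucleotide phosphoramidase, came nearest to passing in unexposed lungs, at 12.01, 12.09 and 12.38 in TG and 12.15, 12.25 and 12.39 in KO (-0.16, SE 0.04, adjusted p = 0.059). Uqcrq, a subunit of respiratory complex III, averaged 10.14 ± 0.22 in unexposed TG and 10.43 ± 0.19 in unexposed KO lungs. In exposed animals, 8 of the 195 tested genes before the run also passed (4.1%) and 2 of the 1038 after it (0.193%), so that the calls were not limited to the run.

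**Figure D2:**
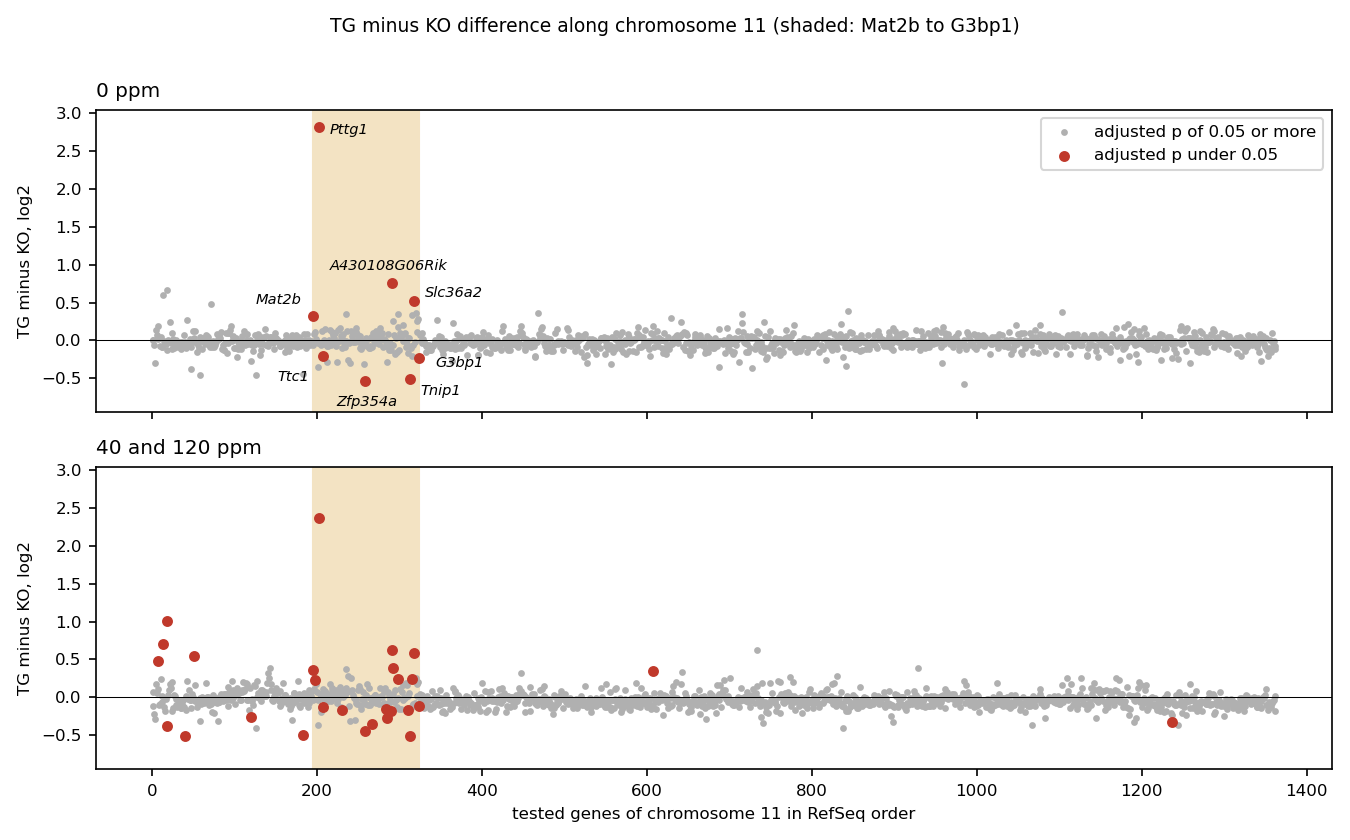
TG minus KO difference on the log2 scale (vertical axis) of the tested genes of chromosome 11 in RefSeq order (horizontal axis), at 0 ppm above and at 40 and 120 ppm below, with genes past an adjusted p of 0.05 in red and the stretch from Mat2b to G3bp1 shaded. The outermost of the 8 genes that passed at 0 ppm set the ends of the shaded stretch. It holds 18 of the 28 genes that passed in exposed animals, those 8 among them.

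Of the 23 genes, 14 have an entry in RefSeq's promoter table (build GRCm38.p6). The promoters of the gene with the largest difference in each direction and of Mat2b, where the chromosome 11 run starts, are shown from 250 bases before to 50 bases after the gene's start, 5′ to 3′ on the gene's strand. They are Pttg1 at chr11:43425932-43426231 (minus strand), Mat2b at chr11:40692633-40692932 (minus strand) and Cxcl1 at chr5:90890995-90891294 (plus strand). Capitals mark matches, on either strand, to CCAAT, to GGGCGG (the GC box), to ATAAAA (part of a TATA box) and to an NF-kB motif (GGG, any 2 bases, TTTCC).
Pttg1: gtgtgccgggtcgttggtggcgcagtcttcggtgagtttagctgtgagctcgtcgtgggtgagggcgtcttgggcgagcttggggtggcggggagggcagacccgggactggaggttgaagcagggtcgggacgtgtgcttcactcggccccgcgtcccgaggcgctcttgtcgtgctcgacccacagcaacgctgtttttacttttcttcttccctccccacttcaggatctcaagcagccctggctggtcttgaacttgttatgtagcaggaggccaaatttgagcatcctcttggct
Mat2b: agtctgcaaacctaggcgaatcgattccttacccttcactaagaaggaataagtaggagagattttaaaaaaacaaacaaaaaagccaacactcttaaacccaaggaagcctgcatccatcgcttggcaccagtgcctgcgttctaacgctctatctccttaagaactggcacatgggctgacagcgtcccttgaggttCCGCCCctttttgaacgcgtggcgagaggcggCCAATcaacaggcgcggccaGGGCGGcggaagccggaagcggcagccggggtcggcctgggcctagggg
Cxcl1: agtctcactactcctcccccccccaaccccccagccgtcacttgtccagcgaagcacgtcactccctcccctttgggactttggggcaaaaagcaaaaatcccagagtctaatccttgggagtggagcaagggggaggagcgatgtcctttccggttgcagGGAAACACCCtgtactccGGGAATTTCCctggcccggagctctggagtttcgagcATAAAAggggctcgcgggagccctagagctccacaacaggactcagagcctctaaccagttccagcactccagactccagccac
Pttg1 held none of these letters in this window, Mat2b held 1 CCAAT and 2 GC boxes, and Cxcl1 held 1 ATAAAA and 2 NF-kB motifs. Of 32851 promoters in the table, 37.4% held CCAAT, 35.7% the GC box, 18.5% ATAAAA and 1.63% the NF-kB motif. A match is a description of the letters and was not tested against the values.

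A pair of neighbouring genes on chromosome 14 was higher in TG. Slc25a37 encodes mitoferrin, which carries iron into mitochondria. It lay at 8.77, 8.96 and 9.45 in TG and at 7.90, 8.30 and 8.72 in KO lungs (0.66, SE 0.08, limma adjusted p = 2.3e-09), with no overlap. Its 3 probe sets were not alike, since a second gave 0.71 (SE 0.13) and the third gave 0.04 (SE 0.11). Both that show the difference are of a kind whose probes can match other sequences, and with the median over its probe sets the gene did not pass (0.04, limma adjusted p = 0.999). Entpd4, the next tested gene, encodes a nucleotide-hydrolysing enzyme of Golgi and lysosomes. It lay at 7.22, 7.39 and 7.91 in TG and at 6.32, 6.70 and 7.24 in KO lungs (0.69, SE 0.08, adjusted p = 1.3e-08), and 8 of 10 TG animals were above every KO animal. Its second probe set, dim in both strains, gave 0.18 (SE 0.07) and did not pass. In both genes the difference was larger at 1 week (0.78 and 0.86, SE 0.11 and 0.12) than at 4 weeks (0.55 and 0.51, SE 0.11 and 0.12), but the difference between weeks did not pass. Single animals widened that gap. TG animal 5 at 1 week, whose array had a low weight, was the highest TG animal in both genes (9.45 and 7.91). KO animal 4 at 4 weeks was the highest KO animal for Entpd4 (7.24). Slc25a37 was the only one of 28 genes of iron and haem handling and of 23 erythroid and platelet markers that passed. Its paralog Slc25a28 averaged 7.84 ± 0.15 in TG and 7.86 ± 0.12 in KO lungs, and the paralogs Entpd5 and Entpd6 differed by -0.02 and -0.19 without passing.

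The remaining genes higher in TG lie on other chromosomes. Erdr1, a gene of the pseudoautosomal region of the sex chromosomes, had 3.92-fold the signal in TG (1.97, SE 0.37, limma adjusted p = 0.0013). It lay at 8.93, 9.46 and 10.09 in TG and at 5.78, 7.53 and 9.35 in KO lungs, so that KO animals were spread widely and 6 TG animals were above all of them. Its only probe set is of a kind whose probes can match other sequences. The transcript 5830417I10Rik (chromosome 3) lay at 6.11, 6.34 and 6.64 in TG and at 3.42, 5.45 and 6.20 in KO lungs (1.27, SE 0.23, adjusted p = 0.0013), also with a wide spread in KO. Chsy1, which encodes a chondroitin synthase, averaged 9.98 ± 0.13 in TG and 9.67 ± 0.12 in KO lungs (0.30, SE 0.07, adjusted p = 0.030), and its call was lost in 10 of the 20 fits that left out 1 animal (adjusted p up to 0.10, without TG animal 3 at 1 week).

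Genes of inflammation, complement and antigen presentation were among those lower in TG. Cxcl1, the chemokine that draws neutrophils, lay at 2.57, 2.83 and 3.17 in TG and at 3.14, 4.14 and 4.95 in KO lungs (-1.34, SE 0.24, limma adjusted p = 0.00079). Both means were dim, and only 3 TG animals reached the lowest KO animal. The neutrophil chemokines Cxcl2 (-0.10, SE 0.13) and Cxcl5 (-0.06, SE 0.27) did not pass. Of 40 measured chemokine and acute inflammation genes, 2 passed, Cxcl1 and Tnip1, and both were lower (0.0819% of all genes were). Of 24 neutrophil markers, 0 passed and 1 had an unadjusted p below 0.05. Cd59a encodes the membrane inhibitor of the complement attack complex, and lay at 6.96, 7.63 and 8.37 in TG and at 7.58, 8.48 and 9.20 in KO lungs (-0.81, SE 0.15, adjusted p = 0.0013), with overlapping ranges. Its other probe set gave -0.88 (SE 0.16). It was the only one of 21 complement genes that passed.

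Cd1d2, a lipid-presenting molecule read by NKT cells, lay at 3.21, 3.52 and 3.86 in TG and at 3.38, 4.41 and 4.77 in KO lungs (-0.72, SE 0.14, limma adjusted p = 0.0015), and both means were dim. Its paralog Cd1d1 averaged 7.19 ± 0.19 in TG and 7.40 ± 0.16 in KO lungs (-0.22, SE 0.08, adjusted p = 0.61). Since these genes are near copies, a probe of one can pick up part of the other. Cd1d2 was the only one of 19 genes of CD1, MHC class I and antigen presentation that passed, in a list with a median of -0.13 in which 3 members were above 0.

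Cyp3a13, a steroid- and drug-oxidising enzyme, was the only one of 34 further P450s and reductases that passed. It lay at 4.38, 5.20 and 5.62 in TG and at 5.26, 5.73 and 6.37 in KO lungs (1.55-fold, -0.64, SE 0.13, limma adjusted p = 0.0078). Without TG animal 5 at 1 week its adjusted p was 0.053. The difference was -0.91 (SE 0.19) at 1 week and -0.36 (SE 0.19) at 4 weeks, but the difference between weeks did not pass. Its paralogs Cyp3a11, Cyp3a25 and Cyp3a41a were dim in both strains and differed by 0.05, 0.04 and 0.01. Of 27 conjugating and hydrolysing enzymes and of 43 Nrf2 and glutathione genes, 0 passed, with 1 and 0 at an unadjusted p below 0.05 in limma. The largest member in these lists was the carboxylesterase Ces1g at -0.23 (SE 0.15), dim in both strains.

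The other genes lower in TG belong to no common list. Tceanc2, a gene with a domain of the transcription elongation factor TFIIS, lay at 3.40, 4.29 and 5.23 in TG and at 4.73, 5.24 and 5.44 in KO lungs (-0.99, SE 0.22, limma adjusted p = 0.019), with a dim mean in TG, so that 9 of 10 TG animals were below every KO animal. Its adjusted p was 0.075 without TG animal 1 at 1 week and 0.093 without TG animal 3 at 4 weeks. Cfl2, the cofilin of muscle that severs actin filaments, lay at 4.58, 5.34 and 5.53 in TG and at 4.96, 6.05 and 6.59 in KO lungs (-0.75, SE 0.14, adjusted p = 0.0013), while the general cofilin Cfl1 differed by -0.01 (SE 0.04). Cfl2 was the only one of 22 actin and sarcomere genes that passed, and 0 of 22 skeletal muscle markers did.

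Clmp, an adhesion molecule of tight junctions, averaged 5.23 ± 0.34 in TG and 5.87 ± 0.63 in KO lungs (-0.65, SE 0.15, limma adjusted p = 0.038). Its call was lost in 11 of the 20 fits that left out 1 animal (adjusted p up to 0.19, without KO animal 3 at 4 weeks), and its second probe set gave -0.13 (SE 0.12). Cep85, a centrosome gene, averaged 6.94 ± 0.21 in TG and 7.42 ± 0.25 in KO lungs (-0.48, SE 0.09), and its second probe set gave -0.54 (SE 0.10). Endod1, a gene with an endonuclease domain, gave -0.28 (SE 0.05), and its other 4 probe sets lay between -0.14 and -0.33. None of these 4 passed, and with the median over its probe sets the gene did not pass. Prmt3, an arginine methyltransferase that acts on a ribosomal protein, averaged 7.31 ± 0.19 in TG and 7.54 ± 0.06 in KO lungs (-0.23, SE 0.05, adjusted p = 0.030) and was lost in 10 of the 20 such fits (adjusted p up to 0.17, without TG animal 5 at 1 week). Its other 4 probe sets gave -0.21, -0.09, 0.01 and 0.04, none of which passed.

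The differences were then examined in the exposed animals, which share no array with the comparison but were in the same fit of 90 arrays. Each gene thus had 1 estimate of its spread for both, and passing in exposed animals was not independent of passing at 0 ppm. There, 169 genes passed between TG and KO (0.988%), 44 higher and 125 lower, against 427 when arrays were weighted and 84 when poly-A controls were a covariate. An unadjusted p below 0.05 in limma was found for 3163 genes (18.5%), with 20 animals per strain where the comparison at 0 ppm had 10. All 23 genes had the same sign as at 0 ppm, and 20 passed. Over all genes, 58.5% had the same sign in both comparisons. The 3 that did not pass were Prmt3 (-0.02), Cyp3a13 (-0.17) and Clmp (-0.35). In 21 of the 23 the sign was the same in each of the 4 pairs of exposed groups, the exceptions being Prmt3 and Cyp3a13. For 18 of the 23 the difference was smaller in exposed than in unexposed animals. The 23 were chosen by their difference at 0 ppm, and such a choice alone favours smaller differences in other animals. This count therefore says nothing about exposure. The difference between exposed and unexposed animals was itself tested, and 0 genes passed (lowest adjusted p 0.12, 579 genes with an unadjusted p below 0.05 in limma, 3.39%). Between 4 weeks and 1 week at 0 ppm, 0 genes passed and 342 had an unadjusted p below 0.05 (2%), and all 23 genes had the same sign at both times.

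**Figure D3:**
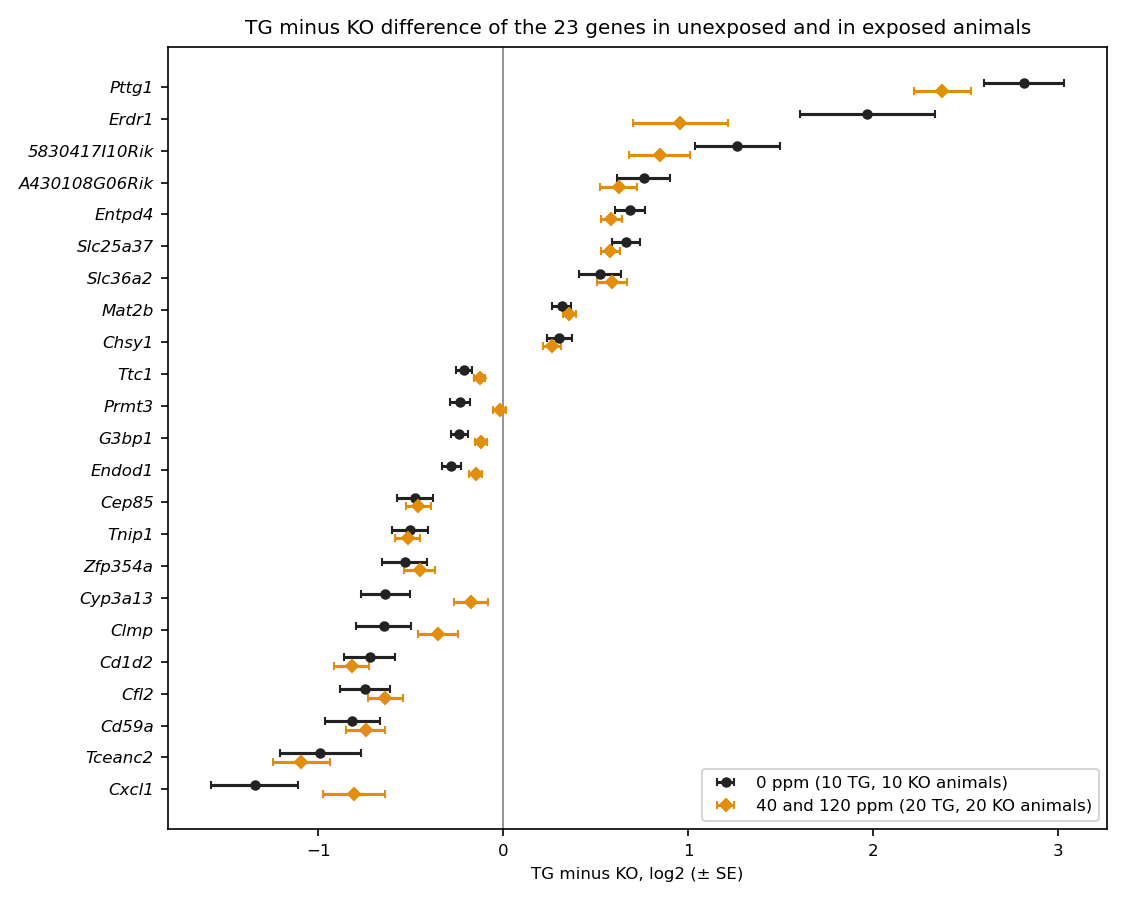
TG minus KO difference on the log2 scale (horizontal axis, points with SE of the limma fit) for the 23 genes that passed at 0 ppm (vertical axis), in unexposed animals (black circles, 10 TG and 10 KO) and in exposed animals (orange diamonds, 20 TG and 20 KO). Both points lie on the same side of 0 for all 23 genes, and Prmt3, Cyp3a13 and Clmp are the 3 that did not pass in exposed animals.

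Pttg1 in exposed animals ranged from 11.86 to 12.16 in TG and from 8.74 to 11.42 in KO, and it was the only gene of all tested whose ranges did not overlap there (0.00585%). The KO values had a gap. Of the 20 exposed KO animals, 15 lay between 8.74 and 9.41, and 5 lay at 11.29, 11.30, 11.34, 11.36 and 11.42. These 5 came from 3 of the 4 exposed KO groups, with 2 at 1 week and 40 ppm, 1 at 4 weeks and 40 ppm and 2 at 4 weeks and 120 ppm, and 0 of the 10 unexposed KO animals lay above 9.57. The TG minus KO difference of Pttg1 was 1.92 at 40 ppm and 2.96 at 120 ppm after 1 week, and 2.55 and 2.06 after 4 weeks. Erdr1 was 8.24 to 9.81 in exposed TG and 5.36 to 9.68 in exposed KO lungs (0.96, SE 0.26, limma adjusted p = 0.045), again with the wider spread in KO.

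Among the 169 genes, 149 had not passed at 0 ppm, and 142 of these had the same sign there. Over all genes 58.5% had the same sign in both comparisons. The 149 were chosen by their difference in exposed animals in the same fit, so they are not like the set of all genes. The largest of the 149 were Gdpd3, Wdfy1, Sec14l4, Dusp18 and Hsph1. Gdpd3, a lysophospholipase D gene, lay at 5.70, 9.73 and 10.51 (lowest, median and highest) in exposed TG and at 5.38, 6.11 and 6.62 in exposed KO lungs (2.14, SE 0.36, limma adjusted p = 0.00011), so that TG animals were spread over a far wider range. Wdfy1, an endosomal adaptor of Toll-like receptor signalling and a member of the list of genes known to differ between C57BL/6 substrains, did not pass in unexposed lungs (0.79, SE 0.19, limma adjusted p = 0.054) and gave 1.07 (SE 0.13) in exposed animals. Of 19 measured genes of that substrain list, 2 passed at 0 ppm, Erdr1 and Entpd4, both higher in TG (0.0526% of all genes were), and the list's median was -0.01. Hsph1, a co-chaperone, was lower in exposed TG lungs (-0.66, SE 0.14, adjusted p = 0.0062), as were 4 further members of the 29 heat shock and unfolded protein genes (0.731% of all genes were). In unexposed lungs 0 of these 29 passed, 4 had an unadjusted p below 0.05 in limma, and the largest was Hspa1b at -0.71 (SE 0.36), with 8.82 to 11.91 in TG and 10.29 to 12.17 in KO.

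The 23 genes were sorted into 3 groups by which differences from WT lungs passed the threshold. The TG minus WT and KO minus WT differences share the 10 WT animals with each other and their TG and KO animals with the comparison above, so they are given side by side and no more. In KO minus WT 47 genes of all passed (0.275%) and in TG minus WT 49 (0.287%). Of the 23, 9 passed in KO minus WT alone, 6 in TG minus WT alone, 0 in both and 8 in neither.

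Genes at which KO stood apart from WT were Pttg1, 5830417I10Rik, A430108G06Rik, Slc36a2, Mat2b, Tnip1, Zfp354a, Cd1d2 and Cfl2. For Pttg1 the difference from WT was -0.10 in TG and -2.92 in KO, and for 5830417I10Rik 0.01 in TG and -1.26 in KO. Cfl2 was at 0.06 in TG and 0.81 in KO, Cd1d2 at 0.04 and 0.76, and Tnip1 at 0.06 and 0.56. Of the 129 tested genes of the chromosome 11 run, 0 passed in TG minus WT (0.287% of all genes did) and 10 in KO minus WT (0.275%). The 10 include Pttg1, A430108G06Rik, Slc36a2, Mat2b, Tnip1 and Zfp354a, already listed. The ends of the run were set by calls between TG and these same KO animals. The counts are therefore not independent of that choice, and nothing is concluded from them. Genes at which TG stood apart from WT were Entpd4 (0.68 in TG, -0.002 in KO), Slc25a37 (0.75 and 0.09), Chsy1 (0.30 and -0.002), Cd59a (-1.39 and -0.58), Tceanc2 (-0.996 and -0.008) and Cxcl1 (-1.63 and -0.28). The 8 genes that passed in neither were Erdr1, Ttc1, Prmt3, G3bp1, Endod1, Cep85, Cyp3a13 and Clmp, and in each of these 8 TG and KO lay on opposite sides of WT. Choosing genes by their TG minus KO difference favours such a position. Some genes lay near the threshold, namely Cd59a in KO minus WT (limma adjusted p = 0.064) and Cep85, Endod1 and Erdr1 in TG minus WT (0.065, 0.069 and 0.081).

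**Figure D4:**
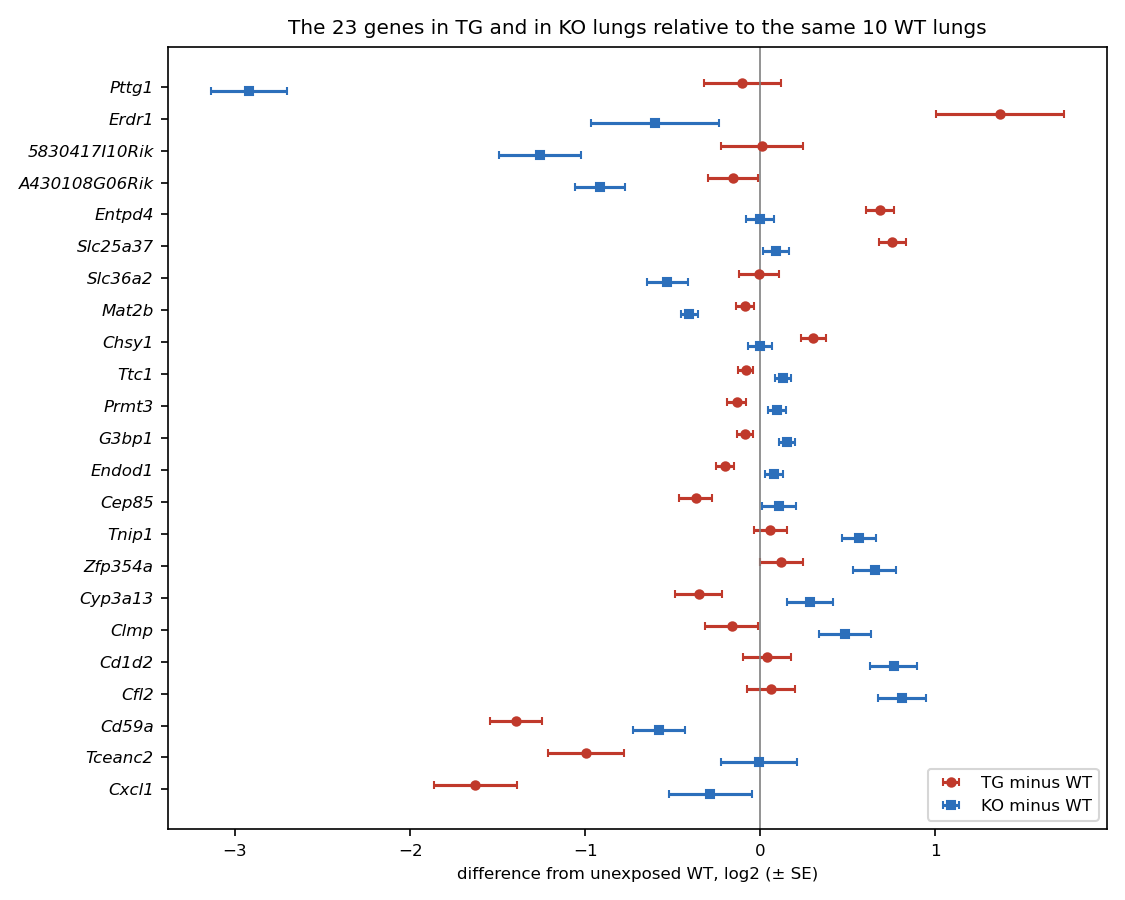
Difference from unexposed WT lungs on the log2 scale (horizontal axis, points with SE of the limma fit) for the 23 genes (vertical axis), in TG (red circles) and KO lungs (blue squares). KO lies far from WT and TG near it for Pttg1 (-2.92 and -0.10), while TG lies far from WT and KO near it for Entpd4 and Slc25a37.

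At the level of single probe sets, 61 of 45037 passed (0.135%). Of these, 28 belong to the 23 genes, 9 to other genes, 1 to several genes and 23 have no listed gene. Tbc1d9b (0.93, SE 0.15) and Aff4 (-0.78, SE 0.12), a scaffold of the super elongation complex, passed by a second probe set while the one used for the gene gave 0.09 and 0.003, and both lie in the chromosome 11 run. So does Sparc, a matricellular protein, where a probe set at 11.71 in TG and 11.33 in KO passed (0.39, SE 0.07) and the one used for the gene gave 0.11. A pair of Wdfy1 probe sets also passed. Of the 23 with no listed gene, 11 were higher and 12 lower in TG, and they ran from -1.91 to 1.82. The most negative one averaged 6.17 in TG and 8.08 in KO lungs and gave -2.14 in exposed animals (limma adjusted p = 1.1e-16).

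In several lists of lung processes no member passed. Of 30 measured PPAR target and fatty acid oxidation genes, 27 were above 0, with a median of 0.11 against -0.02 over all genes, but 0 passed and 7 had an unadjusted p below 0.05 in limma. The largest were Pdk4, which shuts glucose carbon out of the citric acid cycle (7.34 ± 0.57 in TG and 6.71 ± 0.51 in KO, 0.63, SE 0.24, adjusted p = 0.71), the acyl-CoA thioesterases Acot1 (0.50, SE 0.17) and Acot2 (0.46, SE 0.17), and Angptl4, an inhibitor of lipoprotein lipase (0.47, SE 0.28). Of 19 glucocorticoid-responsive genes, 17 were above 0 (median 0.15), 0 passed and 1 had an unadjusted p below 0.05. It shares Pdk4 and Angptl4 with the PPAR list, and Zbtb16 (0.57, SE 0.64) and Fkbp5 (0.45, SE 0.31) spread widely, with Zbtb16 between 6.23 and 9.65 in TG and between 5.37 and 9.54 in KO. In exposed animals both medians were near 0, at -0.01 and -0.04. Sterol and fatty acid synthesis genes had a median of -0.08, with 2 of 22 above 0, 0 passing and 0 at an unadjusted p below 0.05. Clock genes (18 measured), interferon response genes (27), p53 targets (24) and immediate early genes (25) had 0 members that passed and medians between -0.06 and 0.01, with 0, 1, 3 and 3 at an unadjusted p below 0.05. Of 21 genes of methionine and one-carbon metabolism, Mat2b was the only one that passed.

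No list of cell type markers held more than 1 member that passed. The 23 measured club cell markers had a median of -0.06 with 0 passing and 0 at an unadjusted p below 0.05, and their mean level per animal was 9.47 to 10.61 in TG and 9.54 to 10.77 in KO lungs. Alveolar type II markers (median 0.02) and type I markers (-0.0006) were level, with mean levels of 10.47 to 10.69 in TG and 10.43 to 10.72 in KO for type II cells, so that the tissue read as lung in both strains. Mucous cell markers had the lowest median of all lists (-0.17, 2 of 14 above 0). Their largest members were Gp2, a zymogen granule glycoprotein (3.19 ± 0.37 in TG and 4.55 ± 1.49 in KO, -1.36, SE 0.38, limma adjusted p = 0.20), the trefoil factor Tff2 (-0.66, SE 0.48) and the disulfide isomerase Agr2 (-0.53, SE 0.33). All 12 mesothelial markers were below 0 (median -0.12), with 0 passing and 0 at an unadjusted p below 0.05.

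Tissues that can cling to a lung sample varied between animals of each strain. Heart muscle markers averaged 5.24 to 6.85 in TG and 4.90 to 7.86 in KO lungs (0 of 19 passed), and adipocyte markers 5.68 to 7.40 in TG and 5.61 to 7.02 in KO lungs, where 18 of 19 were above 0 (median 0.10) and only Slc36a2 passed. B cell and plasma cell markers averaged 5.47 to 7.26 in TG and 5.45 to 6.60 in KO lungs. In whole lung, fewer cells of a type and less RNA per cell cannot be told apart, and the part that such tissue played in single genes was not tested. In the plot of gene lists most medians lie within 0.1 of 0, and no list holds more than 2 red points.

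**Figure D5:**
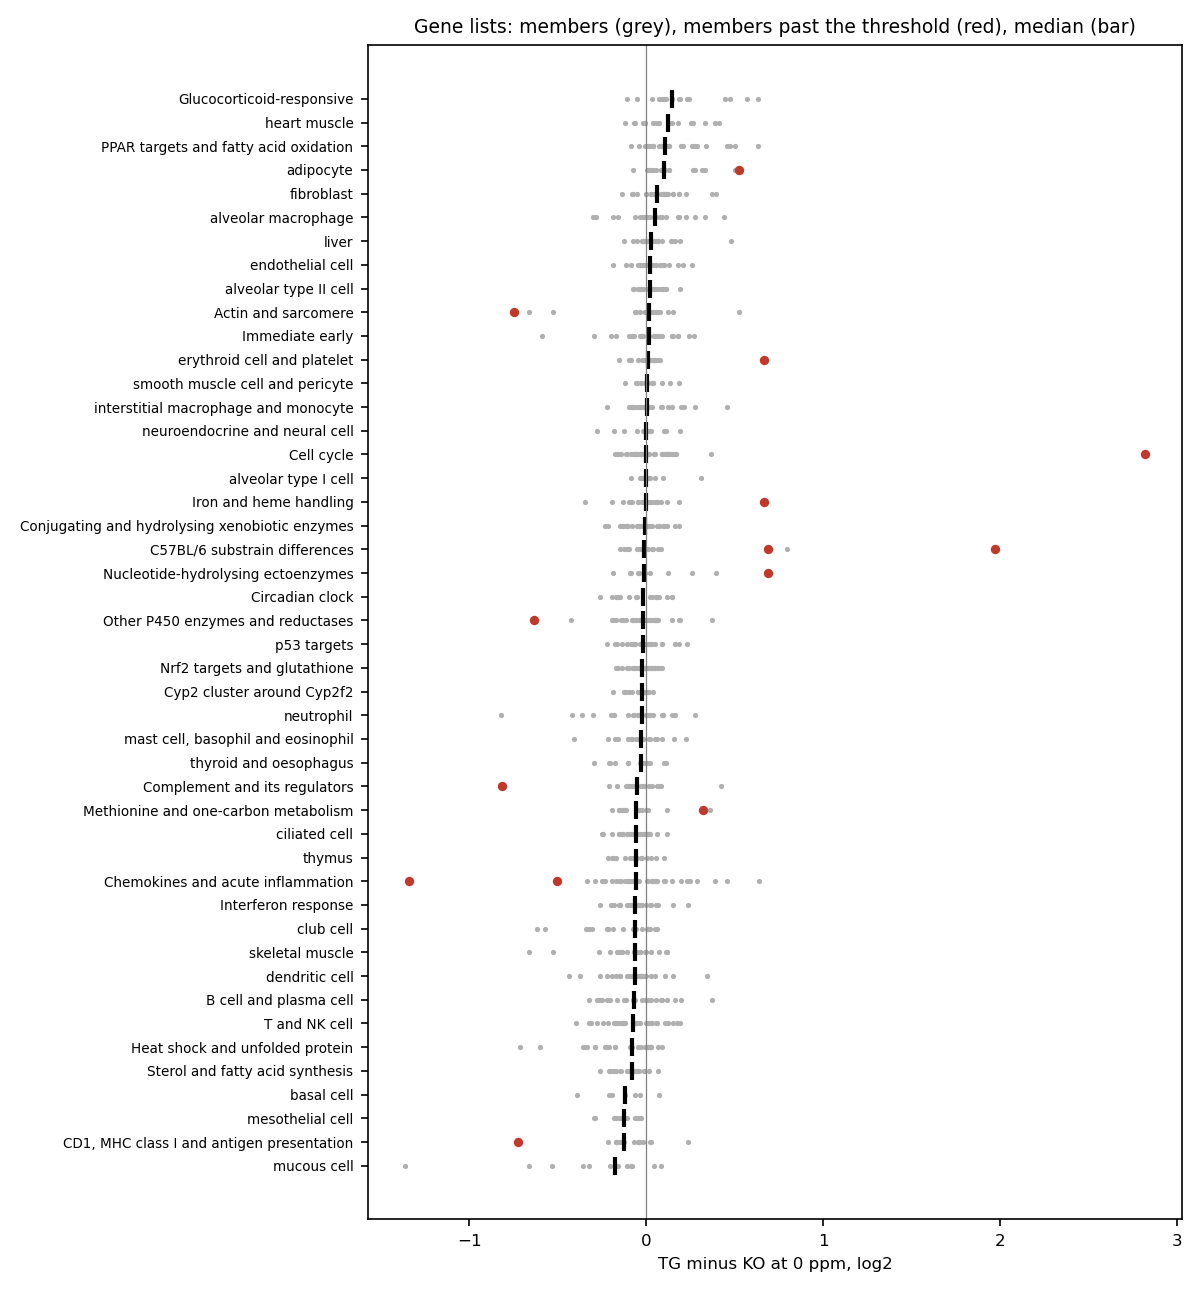
TG minus KO difference at 0 ppm on the log2 scale (horizontal axis) of every measured member (grey points) of the 46 lists (vertical axis), with members past an adjusted p of 0.05 in red and each list's median as a black bar. Medians run from -0.17 in mucous cell markers to 0.15 in glucocorticoid-responsive genes, and a list holds at most 2 red points, as in the chemokine list (Cxcl1 and Tnip1) and the substrain list (Erdr1 and Entpd4).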

How the data were processed

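Whole-lung RNA was hybridised to Affymetrix HT MG-430 PM arrays, 1 per animal. The deposited values are log2 signals per probe set, and Partek and RMA are named in the submitters' processing notes, with versions not given in the sources used here. All 90 arrays of 18 groups were used in 1 fit with R 4.3.3 and limma 3.58.1. No further normalization was applied, and 0 columns stayed unmapped. Of 45141 probe sets, 104 controls were left out. For each of 17097 genes, the brightest probe set on average across arrays was used, among those with 1 listed gene. The contrast averaged the differences at 1 and 4 weeks, with Benjamini-Hochberg adjustment over all genes and a threshold of 0.05.

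The labels used here do not say whether litters or cages were shared, and animals were treated as independent. The p-values rest on a spread between animals estimated over all 18 groups, WT and exposed ones included. For Pttg1 the SE was 0.22 in that fit and 0.08 in the fit of the 20 arrays alone. For Cd59a the limma adjusted p was 0.0013 and 0.36 in these fits, and 7 of the 23 genes passed in the second. Named genes were those past the threshold (at most 15 in each direction), at most 4 leading members of each list, and neighbours up to 5 tested genes away. Members of the chromosome 11 run, paralogs and Pttg1 in single KO animals were chosen after their values were seen. The comparison and the lists were chosen with earlier results of these data known. The fit was tested on simulated data with 200 changed genes of 17097 (9 false calls). Alternatives were array weights, poly-A and beta-actin covariates (the second chosen after seeing the data), renormalization, dim genes left out and the median over probe sets. Further ones were other sets of arrays, a replicate block and each of the 20 unexposed TG and KO animals left out. RefSeq GRCm38.p6 gave chromosomes, gene order and promoters. The number of arrays limits the precision.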

Additional observations from a re-analysis of the deposited data

Results flagged for a closer look

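Among the 25 genes checked in each of the 4 unexposed TG and KO groups of 5 animals, 7 of 100 pairs of gene and group held 1 animal far from the other 4, and chance gives about 1 in 20. In TG animal 5 at 1 week, which also had the lowest array weight, Entpd4 was 7.906 (others 7.389 to 7.504) and Slc25a37 was 9.448 (others 8.893 to 9.01). Cyp2f2 was 11.63 in TG animal 2 at 1 week (others 11.94 to 12.05), and Tceanc2 was 3.404 in TG animal 3 at 4 weeks (others 4.204 to 4.489). In KO animals, 5830417I10Rik was 3.809 in animal 3 at 1 week (others 5.323 to 5.747), Cfl2 was 5.789 in animal 4 at 1 week (others 6.401 to 6.588), and Entpd4 was 7.244 in animal 4 at 4 weeks (others 6.545 to 6.705).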

How the results depend on the processing

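None of the 23 genes changed direction under any alternative that was run. The count of 23 became 54 with array weights (20 higher, 34 lower), 42 with the poly-A covariate (20 higher, 22 lower) and 7 with only the arrays compared, and between 17 and 31 under the other alternatives. The beta-actin covariate was chosen after seeing the data. Leaving out 1 of the 20 unexposed TG and KO animals gave 18 to 30, and no exposed or WT animal was left out in turn. The exposed count of 169 became 427 when arrays were weighted and 84 when poly-A controls were a covariate. It was 160 to 205 with 1 unexposed animal left out, which changes only the shared estimate of the spread. How it depends on single exposed animals was not tested. The 61 probe sets became 40 with only KO and TG arrays, 97 with array weights and 22 with only the arrays compared, and 49 to 73 with 1 animal left out. The difference between exposed and unexposed animals called 0 to 1 genes with 1 animal left out, and the 1 gene was 4933424G05Rik, without TG animal 1 at 1 week or TG animal 1 or 4 at 4 weeks. The cause was not tested.

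The near-zero differences of the unchanged genes crossed 0. Cyp2f2 was -0.00086 after quantile normalization and -0.021 to 0.044 with 1 animal left out, including -0.0013 and -0.0031 without KO animal 2 and TG animal 5 at 1 week. Scgb1a1 was -0.0041 with array weights, -0.030 with the beta-actin covariate and -0.012 after quantile normalization. With 1 animal left out it was -0.012 to 0.0285, including -0.0055 without KO animal 4 at 1 week. With the replicate number as a block, 30 genes passed, all 23 among them. Same-numbered TG and KO animals correlated between -0.514 and 0.333, and 6 of 10 pairs were over 0.1, so the numbers were not taken to pair animals.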

Other observations

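Fibroblast markers were above 0 in TG minus KO for 23 of 29 members (median 0.06, 0 passed, 1 with an unadjusted p below 0.05 in limma), and T and NK cell markers were above 0 for 11 of 38 (median -0.07, 0 passed, 3 unadjusted). In exposed animals 4 of the 38 T and NK cell markers passed, all lower in TG (0.731% of all genes were). They were Gzma, Gzmb, Prf1 and Ncr1, genes of cytotoxic lymphocytes. Gzma, a cytotoxic granule protease, ranged from 7.97 to 9.01 in exposed TG and from 8.20 to 9.87 in exposed KO lungs (-0.56, SE 0.14, limma adjusted p = 0.020).

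Near Cyp3a13 on chromosome 5, Azgp1, which encodes a zinc-binding glycoprotein, was -0.44 (SE 0.15, limma adjusted p = 0.46). Near Clmp on chromosome 9, Scn3b, a sodium channel subunit, was -0.43 (SE 0.14, limma adjusted p = 0.44). Neither passed.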
